A study of Homo sapiens with 2 samples.

Results

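The BCL2 family genes MCL1, BCL2L1, BCL2L11, BCL2L12, BAK1, BAX, BAD, BID, BIK and BOK were followed in RNA of HCT116, a long-established cell line from a human colorectal carcinoma. They were taken by gene symbol, and each of the 10 had 1 row among the 50867 gene rows of the deposited table. The cells had been transfected with an siRNA against PHF5A or with a control siRNA, and both groups were otherwise labelled alike. PHF5A belongs to the SF3b complex, with which the U2 snRNP recognises branch points when introns are removed. There was 1 library per group, 2 in all, so differences are without a replicate check and no p-value is given. The sources used here do not give the siRNA sequence, the dose or the time after transfection, and what the siRNA does to other transcripts cannot be told apart from what the loss of PHF5A does.

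The BCL2 family decides whether the outer mitochondrial membrane stays intact. Guardian proteins such as MCL1 and Bcl-xL, the product of BCL2L1, hold the pore-forming effectors BAK1 and BAX in check, and BH3-only proteins such as BIM (BCL2L11), BAD, BID and BIK neutralise guardians or activate effectors. MCL1 is a short-lived protein whose mRNA also turns over quickly, and both MCL1 and BCL2L1 are known for alternative splicing into forms that promote death.

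The knockdown library held 25897412 counts and the control library 26552789. PHF5A had 2.31 FPKM and 91 counts in the knockdown library, against 9.07 FPKM and 367 counts in the control library, and was 3.93-fold lower (interval 3.12 to 5.0), the direction its label states. FPKM is the count scaled by gene length and by the library's total count, as deposited. Intervals are 95% exact intervals of the ratio of counts scaled by the total alone (CPM), and cover counting error only. The 7SL RNA entries, RN7SK and RPPH1 took 25.8% of the knockdown counts and 16.5% of the control counts, and these counts are part of the totals behind FPKM. Of 10 colon epithelium markers 6 reached 1 FPKM. The counting interval lay above 1 for 2 of these 6, below 1 for 3, and held 1 for the other. KRT19 had 1032 FPKM in the knockdown library and 1046 FPKM in the control library. CDX2 counts were 367 after knockdown and 822 in the control, a CPM ratio of 0.458 (interval 0.404 to 0.518). For EPCAM the CPM ratio was 1.25 (interval 1.09 to 1.42). KRT20 and CDH17 had 0 counts in both libraries, and VIL1 and LGALS4 had at most 2. All 16 heart muscle markers had counts in the control library. They summed to 3.44 FPKM (341 counts) in the knockdown library and 313 FPKM (99623 counts) in the control library, with 7 of the 16, MYH7 among them, at 0 in the knockdown library. The part of this heart muscle RNA in the values below was not tested. HCT116 is a colorectal carcinoma line, and the source of the heart muscle RNA in the control library was not tested. In bulk RNA, fewer cells of a type, less RNA per cell and RNA from outside the culture cannot be told apart.

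On the log2 ratio of FPKM with 1 added to each value, none of the 10 members was 2-fold higher or lower in the knockdown library. Of the 8957 expressed genes, those reaching 1 FPKM in at least 1 library, 2.53% were higher and 6.2% lower by 2-fold or more, 8.73% in either direction. BAK1 came closest, and BAD and BID followed it. These 3 of the 9 members above 1 FPKM were higher by 1.5-fold or more and 0 were lower by that much, beside 8.45% and 18.2% of all expressed genes, 26.7% in either direction. The counting interval lay above 1 for 5 of the 9 members (28.4% of all expressed genes) and below 1 for 2 (50.7%). The median log2 ratio of the 9 was 0.12, and that of all expressed genes was -0.15. BCL2L11, the tenth member, stayed below 1 FPKM in both libraries.

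**Figure D1:**
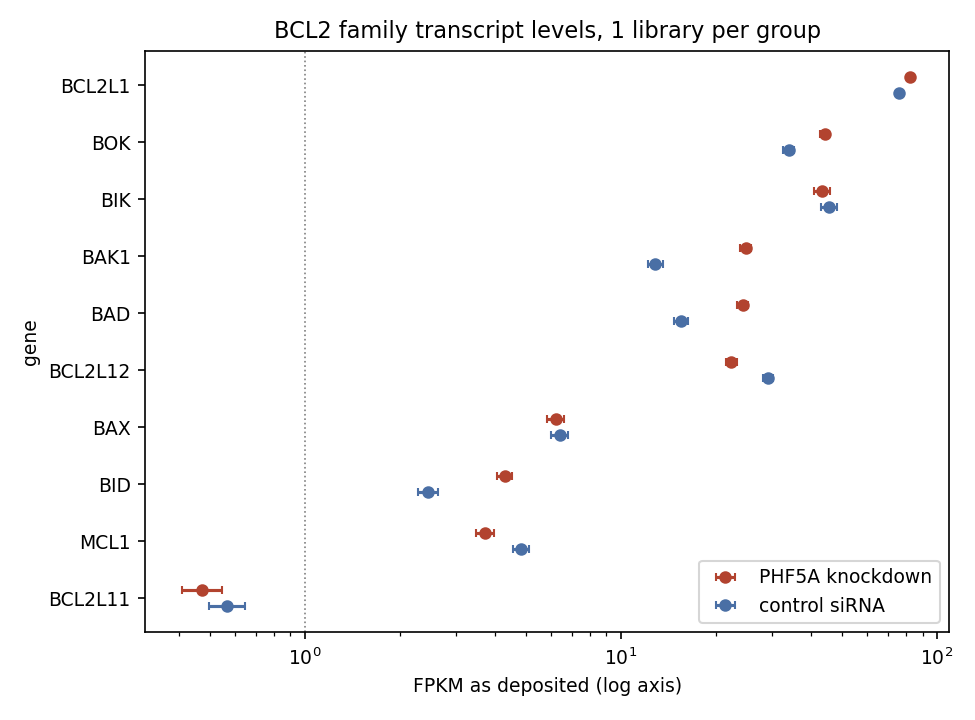
Deposited FPKM (log axis) of the 10 genes in the PHF5A knockdown library and the control library, with bars for the 95% exact Poisson interval of each count; the dotted line is 1 FPKM. BCL2L1 is highest in both libraries, at 82.3 FPKM in the knockdown library and 75.8 FPKM in the control library, and BCL2L11 is lowest.

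The guardian genes went in opposite directions. MCL1 (ENSG00000143384, chromosome 1, 150574551 to 150579738, GRCh38) had 3.72 FPKM and 918 counts in the knockdown library, against 4.83 FPKM and 1221 counts in the control library. MCL1 was 1.30-fold lower (interval 1.19 to 1.41), a log2 ratio of -0.30. BCL2L1 (ENSG00000171552, chromosome 20, 31664452 to 31723989) had 82.3 FPKM and 15053 counts in the knockdown library, against 75.8 FPKM and 14215 counts in the control library. BCL2L1 was 1.09-fold higher (interval 1.06 to 1.11), but its log2 ratio of 0.12 became -0.30 when each library was rescaled to an equal FPKM sum (TPM). The depth behind BCL2L1 makes its counting interval narrow, and variation between cultures is not in it.

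Because the ratio of 2 genes within a library does not depend on the library total, it was compared as well. The MCL1 to BCL2L1 ratio of deposited FPKM was 0.0452 in the knockdown library and 0.0637 in the control library. By counts, the knockdown ratio was 1.41-fold lower (interval 1.29 to 1.54). BCL2L1 exceeded MCL1 by 22.1-fold in the knockdown library and by 15.7-fold in the control library.

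The table gives 1 value per gene and cannot separate the splice forms of these genes, which differ at the junctions shown here. In BCL2L1, the Bcl-xL form uses the full exon at chromosome 20, 31721655 to 31722348, on the minus strand. The Bcl-xS form, whose product promotes death, uses a splice donor 189 bases earlier, so its exon covers 31721844 to 31722348. In MCL1, the long form includes an exon of 248 bases at chromosome 1, 150578244 to 150578491, and the short form, whose product resembles a BH3-only protein, skips it. Each line gives 15 bases on either side of the junction from GENCODE release 29 transcripts (GRCh38), 5′ to 3′, with the downstream exon in capitals.
Bcl-xL: gagaacggcggctggGATACTTTTGTGGAA
Bcl-xS: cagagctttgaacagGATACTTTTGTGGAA
MCL1 long: agacggccttccaagGCATGCTTCGGAAAC
MCL1 short: agacggccttccaagGATGGGTTTGTGGAG
Both BCL2L1 forms enter the same downstream exon from different donors, and both MCL1 forms leave the same donor for different exons. Reads of either form count toward the same gene. An antisense entry within BCL2L1, ABALON, had 230 counts in the knockdown library and 240 counts in the control library (ratio 0.983, interval 0.816 to 1.18). The sources used here do not say whether reads were counted by strand, so counts of ABALON and BCL2L1 cannot be told apart.

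Among the effectors BAK1 was higher in the knockdown library while BAX was not detectably different at this depth. BAK1 (ENSG00000030110, chromosome 6, 33572547 to 33580293) had 24.8 FPKM and 2482 counts in the knockdown library, against 12.9 FPKM and 1319 counts in the control library. It was 1.93-fold higher (interval 1.80 to 2.06), a log2 ratio of 0.90, which 3.37% of expressed genes reached or exceeded. BAX (ENSG00000087088, chromosome 19, 48954815 to 48961798) had 6.22 FPKM and 945 counts in the knockdown library, against 6.41 FPKM and 998 counts in the control library. Its ratio was 0.971 (interval 0.887 to 1.06) with the totals as deposited, and its log2 ratio ran from -0.41 to 0.18 over the scalings compared below. BOK (ENSG00000176720, chromosome 2, 241558721 to 241574138), an effector that works largely apart from the guardians, had 44.1 FPKM and 3033 counts in the knockdown library, against 34.0 FPKM and 2396 counts in the control library. BOK was 1.30-fold higher (interval 1.23 to 1.37), although its log2 ratio of 0.37 became -0.04 with TPM rescaling.

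The BAK1 to BAX ratio within a library was therefore higher after knockdown. It was 3.99 in the knockdown library and 2.01 in the control library on deposited FPKM, a 1.99-fold difference (interval 1.78 to 2.22). Against the guardians, BAK1 was 2.50-fold higher relative to MCL1 (interval 2.24 to 2.79) and 1.78-fold higher relative to BCL2L1 (interval 1.65 to 1.91). A processed pseudogene of BAK1, BAK1P1, had 122 counts in the knockdown library and 120 counts in the control library. With those counts added to BAK1 its ratio was 1.86. The overlapping entry GGNBP1 held 8 counts in the knockdown library and 5 in the control library.

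**Figure D2:**
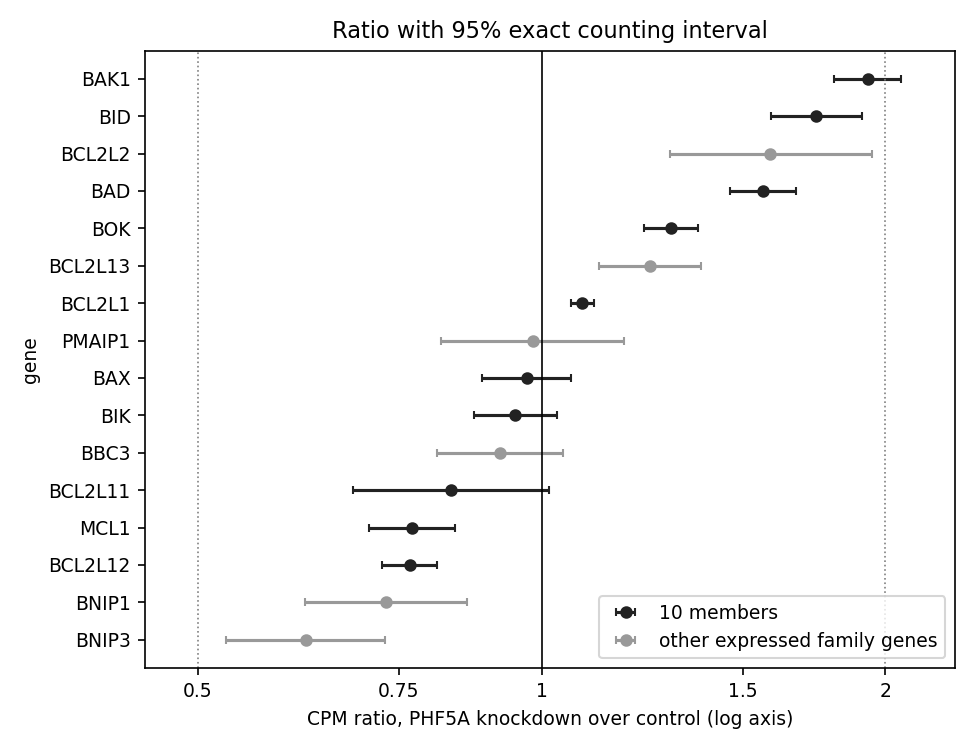
CPM ratio of the knockdown over the control library (log axis) with 95% exact counting intervals, for the 10 members and the 6 other family genes of at least 1 FPKM; dotted lines mark 2-fold. BAK1 (1.93), BID (1.74) and BAD (1.56) lead the members, BCL2L2 lies between BID and BAD with a wide interval, and BNIP3 is lowest.

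The BH3-only members split into 2 that were higher and 2 whose intervals held 1. BID (ENSG00000015475, chromosome 22, 17734138 to 17774770), which caspase-8 cleaves to link death receptors to mitochondria, had 4.28 FPKM and 1256 counts in the knockdown library, against 2.46 FPKM and 740 counts in the control library. It was 1.74-fold higher (interval 1.59 to 1.91), and its log2 ratio was 0.61 because the added 1 weighs on a low FPKM. BAD (ENSG00000002330, chromosome 11, 64269830 to 64284704), which binds Bcl-xL unless phosphorylated, had 24.3 FPKM and 2209 counts in the knockdown library, against 15.5 FPKM and 1450 counts in the control library. BAD was 1.56-fold higher (interval 1.46 to 1.67). Antisense to it over 14643 bases lies GPR137, with 733 counts in the knockdown library and 493 counts in the control library, 1.52-fold higher (interval 1.36 to 1.71). Both entries were thus higher by about the same ratio, and without the strand setting their reads cannot be told apart.

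With the totals as deposited, BIK and BCL2L11 showed no difference beyond counting error. Over the scalings compared below, the log2 ratio ran from -0.49 to 0.17 for BIK and from -0.25 to 0.06 for BCL2L11. BIK (ENSG00000100290, chromosome 22, 43110748 to 43129712) had 43.3 FPKM and 1068 counts in the knockdown library, against 45.6 FPKM and 1154 counts in the control library (ratio 0.949, interval 0.872 to 1.03). BCL2L11 (ENSG00000153094, chromosome 2, 111119378 to 111168447), whose product BIM can engage every guardian, had 0.474 FPKM and 187 counts in the knockdown library, against 0.569 FPKM and 230 counts in the control library. Its ratio was 0.834, and the interval, with a lower bound of 0.684 and an upper bound of 1.016, held 1 as well as the MCL1 ratio of 0.771.

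BCL2L12 (ENSG00000126453, chromosome 19, 49665142 to 49673916), an atypical proline-rich relative, was the lowest of the members by log2 ratio. It had 22.3 FPKM and 2280 counts in the knockdown library, against 29.2 FPKM and 3050 counts in the control library, and was 1.30-fold lower (interval 1.24 to 1.38). Head to head with it and overlapping by 734 bases lies IRF3, an interferon regulatory factor, with 3019 counts in the knockdown library and 3258 counts in the control library (ratio 0.95, interval 0.904 to 0.999). The interval of BCL2L12 lay below that of IRF3, and counts in the overlap cannot be told apart without the strand setting. BCL2L12P1, its pseudogene, had at most 1 count in either library.

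**Figure D3:**
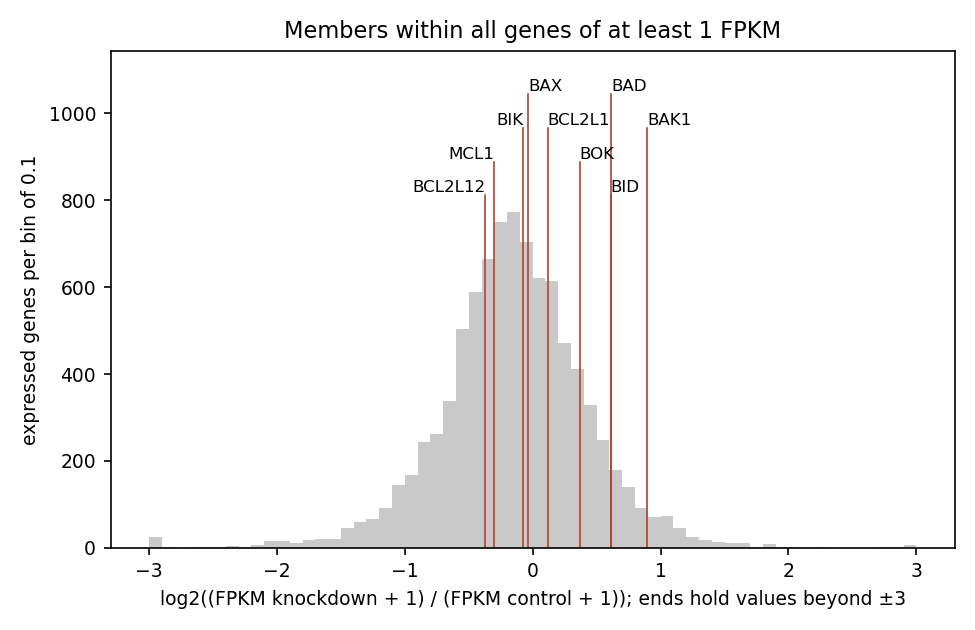
Histogram of the log2 ratio over the 8957 genes of at least 1 FPKM, in bins of 0.1, with red lines at the 9 members above that level. MCL1 and BCL2L12 lie left of the median of -0.15, BAX and BIK just right of it, and BAD, BID and BAK1 in the right tail.

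The start regions of BAK1, BAD and BID are shown because these 3 members had the highest ratios, and that of BAX because it is an effector like BAK1 and its interval held 1. RefSeq windows were found for 8 of the 10 members and for neither MCL1 nor BIK. Each line gives the 250 bases before the RefSeq start nearest to the gene's deposited 5′ end, on the gene's strand, 5′ to 3′. The windows (RefSeq, GRCh38.p14) are chr6:33580277-33580526 (minus strand) for BAK1, chr19:48954625-48954874 (plus) for BAX, chr11:64284705-64284954 (minus) for BAD and chr22:17774666-17774915 (minus) for BID. Capitals mark GGGCGG (the GC box), CACGTG (an E-box) and TGACGT (part of a cyclic AMP response element) on either strand. The TATA motif TATAAA was searched as well.
BAK1: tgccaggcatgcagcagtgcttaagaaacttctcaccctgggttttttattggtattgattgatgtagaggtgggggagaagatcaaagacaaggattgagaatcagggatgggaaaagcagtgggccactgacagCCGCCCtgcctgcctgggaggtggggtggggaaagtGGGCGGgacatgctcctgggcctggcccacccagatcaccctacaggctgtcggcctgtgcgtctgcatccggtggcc
BAX: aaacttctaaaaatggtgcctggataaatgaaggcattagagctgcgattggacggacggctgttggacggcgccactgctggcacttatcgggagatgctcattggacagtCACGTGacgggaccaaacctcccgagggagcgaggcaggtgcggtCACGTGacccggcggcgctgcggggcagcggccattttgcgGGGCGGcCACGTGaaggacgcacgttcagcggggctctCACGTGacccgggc
BAD: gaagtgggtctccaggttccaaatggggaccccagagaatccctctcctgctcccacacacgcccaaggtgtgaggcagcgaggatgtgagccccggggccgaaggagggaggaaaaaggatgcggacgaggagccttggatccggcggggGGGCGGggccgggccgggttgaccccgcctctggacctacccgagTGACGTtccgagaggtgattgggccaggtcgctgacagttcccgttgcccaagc
BID: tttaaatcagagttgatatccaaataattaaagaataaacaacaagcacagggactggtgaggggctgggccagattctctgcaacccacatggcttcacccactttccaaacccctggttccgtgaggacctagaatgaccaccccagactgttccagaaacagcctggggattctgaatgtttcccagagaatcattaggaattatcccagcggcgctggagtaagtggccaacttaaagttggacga
The BAK1 window held 2 GC boxes and the BAX window held 1 with 4 E-boxes. The BAD window held 1 GC box and 1 TGACGT, and the BID window none of these. BID had 5 RefSeq starts and BAD 2, of which only the nearest was searched. That of BID lay 105 bases from its deposited 5′ end. TATAAA was in none of the 4 windows. The window of BOK, the effector that was 1.30-fold higher, held 1 GC box and is not printed. Over 35116 windows of the same length a GC box was found in 42.6%, CACGTG in 6.34%, TGACGT in 7.10% and TATAAA in 10.7%. GC content was 58.0% for BAK1, 62.8% for BAX, 66.4% for BAD and 47.6% for BID. None of the motifs searched was shared by these windows of BAK1, BAD and BID, and a match is a run of letters, not a measured binding site.

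Directions were compared over 9 scalings, the deposited one and 8 alternatives. Changing the pseudocount, using CPM or using the GENCODE exon length cannot change a sign. Only median centring, upper-quartile scaling, TPM rescaling and the total without the abundant small RNAs could. BAK1, BAD and BID were above 0 and MCL1 and BCL2L12 below 0 in all 9. The other 5 members changed sign under at least 1 of them. TPM rescaling moved the median of all expressed genes to -0.47, and it turned BCL2L1 and BOK below 0. Median centring turned BAX, BIK and BCL2L11 above 0. Relative to the median of all expressed genes under each scaling, BAK1 stood 0.97 to 1.13 higher, BID 0.74 to 0.98 and BAD 0.69 to 0.83. BOK stood 0.43 to 0.57 and BCL2L1 0.17 to 0.31 higher. MCL1 stood below that median by log2 values of -0.18 to -0.16 and BCL2L12 by -0.30 to -0.19.

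**Figure D4:**
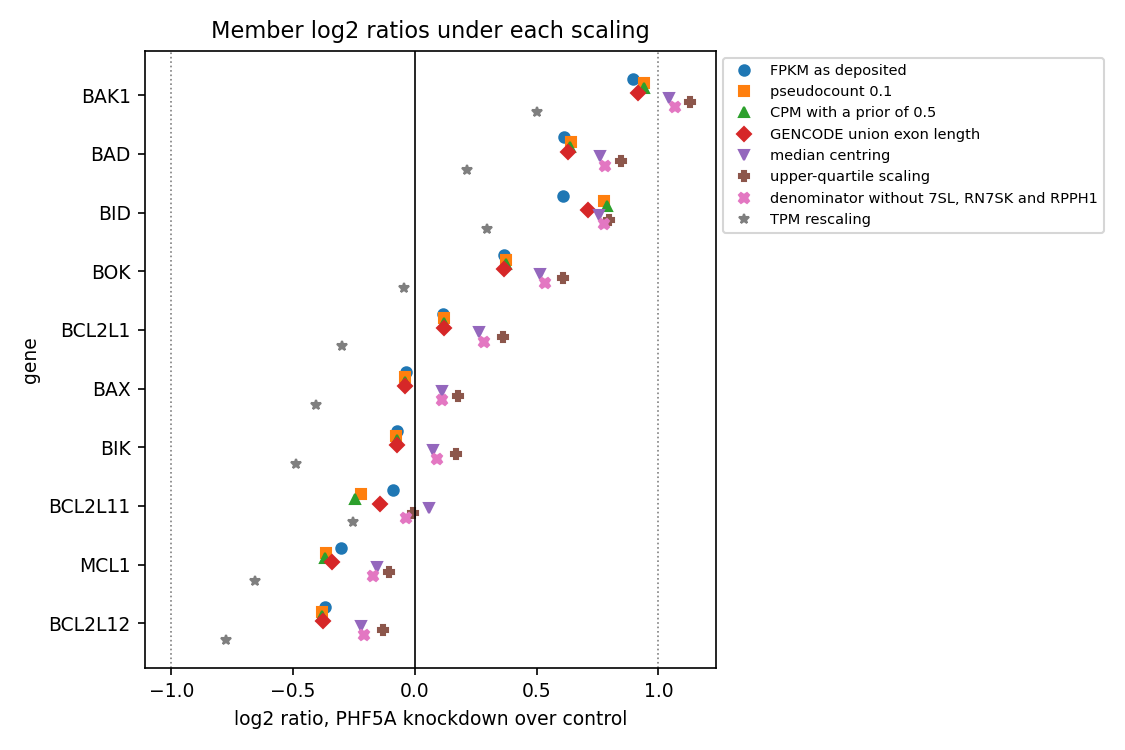
Log2 ratio of the knockdown over the control library for each member under the deposited scaling and 7 alternatives; dotted lines mark 2-fold. TPM rescaling gives the lowest value for each of the 10 genes, and BAK1 passes 2-fold under median centring (1.05), upper-quartile scaling (1.13) and without the abundant small RNAs in the total (1.07).

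Levels between members depend on the gene length behind FPKM. The length implied by each deposited FPKM matched the sum of all distinct GENCODE exons, counted again where they overlap, within 2% for 89.1% of 22092 genes. For MCL1 it was 9520 bases, longer than its locus of 5188 bases and than the 4371 bases its exons cover once. The implied length exceeded the covered length for 8 of the 10 members, by up to 2.55-fold for BID. BIK, with 1 annotated transcript, had an implied length of 953 bases, its covered length, whereas BCL2L11, with 25, had 15223 bases against 6658 covered. Deposited FPKM of such genes are therefore low beside that of BIK. The ratio of the knockdown to the control library for 1 gene is not altered, apart from the added 1.

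With the exons covered once, BCL2L1 stood at 175 FPKM in the knockdown library and 162 FPKM in the control library, MCL1 at 8.11 FPKM in the knockdown library and 10.5 FPKM in the control library, and BCL2L11 at 1.08 FPKM in the knockdown library and 1.30 FPKM in the control library. BCL2L1 was highest and BCL2L11 lowest in both libraries by either length. In the knockdown library the next levels were BAD at 49.9 FPKM, then BAK1, BIK and BOK at 43.3, 43.3 and 43.2 FPKM, whose counting intervals overlapped, then BCL2L12 at 39.7, BAX at 14.1 and BID at 10.9 FPKM. In the control library they were BCL2L12 at 51.8, BIK at 45.6, BOK at 33.3 and BAD at 32.0 FPKM, the last 2 with overlapping intervals, then BAK1 at 22.5, BAX at 14.5, MCL1 at 10.5 and BID at 6.27 FPKM. MCL1 thus lay below BID in the knockdown library and above it in the control library.

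The same length choice moved the level ratios but not their change between libraries for a single pair. BAK1 to BAX was 3.07 in the knockdown library and 1.55 in the control library with the exons covered once. With the longest transcript as length it was 1.61 in the knockdown library and 0.811 in the control library, so which effector transcript was the more abundant in control cells turned on the length. BCL2L1 exceeded MCL1 by 21.6-fold in the knockdown library and 15.4-fold in the control library with the exons covered once.

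Summed by role, the guardians had 86.1 FPKM in the knockdown library and 80.7 FPKM in the control library, 1.07-fold higher. The effectors had 75.1 FPKM in the knockdown library and 53.2 FPKM in the control library, 1.41-fold higher. The BH3-only members had 72.3 FPKM in the knockdown library and 64.2 FPKM in the control library, 1.13-fold higher. These folds depend on the library total. FPKM of all genes summed to 1027620 in the knockdown library and 767609 in the control library, and the sums by role were not rescaled to equal totals. BCL2L1 made up nearly all of the guardian sum, and its log2 ratio was -0.30 with TPM rescaling. On deposited FPKM, BOK made up most of the effector sum, at 44.1 FPKM in the knockdown library and 34.0 FPKM in the control library. The guardian to effector ratio was 1.15 in the knockdown library and 1.52 in the control library. With the exons covered once it was 1.82 in the knockdown library and 2.45 in the control library. Its change between the libraries was a ratio of 0.756 by deposited FPKM, 0.745 with the exons covered once and 0.755 by raw counts (interval 0.722 to 0.789).

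**Figure D5:**
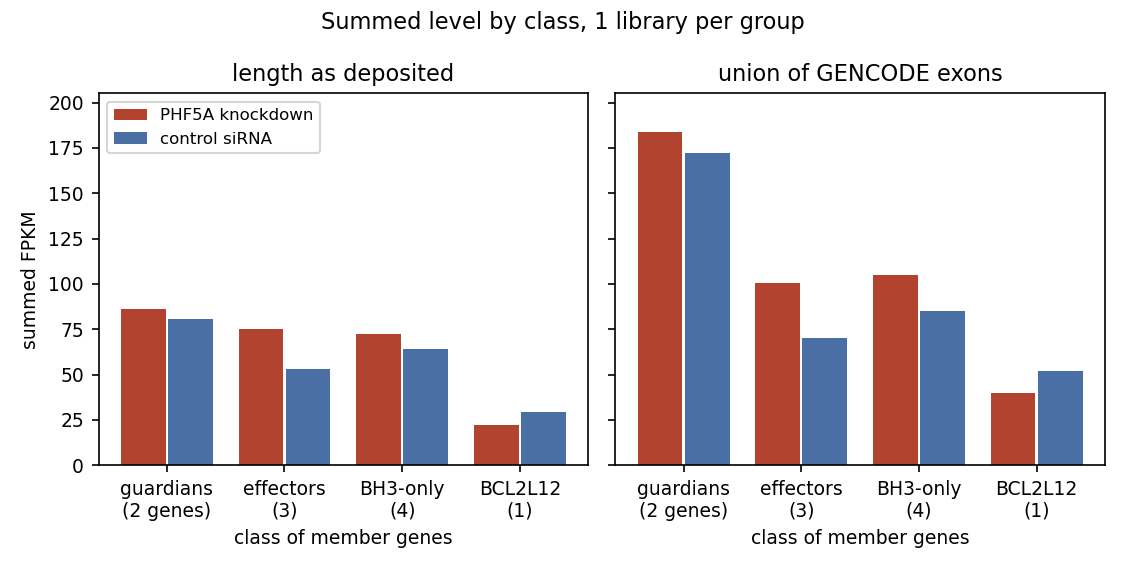
Summed FPKM of the member genes by role in the knockdown and control libraries, with the deposited gene length (left) and with GENCODE exons covered once (right). The effector sum is 75.1 in the knockdown library and 53.2 in the control library on the left, 101 in the knockdown library and 70.3 in the control library on the right, while BCL2L12 is lower in the knockdown library in both.

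Of the other 15 genes of the family 6 reached 1 FPKM, and 0 of these were 2-fold higher or lower. Their median log2 ratio was -0.05. BCL2L2, which encodes the guardian Bcl-w, had 1.80 FPKM and 249 counts in the knockdown library, against 1.14 FPKM and 161 counts in the control library, 1.59-fold higher (interval 1.30 to 1.95). The read-through entry BCL2L2-PABPN1 shares part of its locus and had a ratio of 1.004 (interval 0.849 to 1.19), so BCL2L2 is uncertain. BCL2L13, a mitophagy receptor, was 1.24-fold higher (interval 1.12 to 1.38).

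BBC3 and PMAIP1, which encode the stress-induced BH3-only proteins PUMA and NOXA, had ratios of 0.920 (interval 0.810 to 1.05) and 0.983 (interval 0.817 to 1.18). BNIP1, a relative in the endoplasmic reticulum, was 1.37-fold lower (interval 1.16 to 1.61), and the hypoxia gene BNIP3 was 1.61-fold lower (interval 1.37 to 1.89). Of the 9 below 1 FPKM, BCL2 itself had 3 counts in the knockdown library and 16 in the control library. BMF, picked out after its values were seen, had 18 counts in the knockdown library and 199 in the control library. This BH3-only gene was 10.8-fold lower (interval 6.65 to 18.6), in the same direction as the heart muscle markers, whose summed counts were 341 in the knockdown library and 99623 in the control library. Whether the 2 are linked was not tested.

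Around the family, 44 of 64 genes in 7 lists reached 1 FPKM. The lists hold apoptosome and caspase genes, inhibitors of apoptosis and their antagonists, outer membrane genes and death receptor genes. They also hold genes that act on MCL1 turnover, on BCL2L1 or MCL1 splicing, or on BH3-only genes. On the log2 ratio with 1 added, 1 of the 44 was higher and 1 lower by 2-fold or more, beside 2.53% and 6.2% of all expressed genes. The median log2 ratio of the 44 was -0.20. That of all expressed genes, against which the list medians below are read, was -0.15. The added 1 understates the change of genes at low FPKM, such as TRADD and DDIT3. Downstream of the mitochondrion, none of 3 expressed apoptosome and caspase genes passed 2-fold, with log2 ratios of -0.31 for CYCS (cytochrome c), -0.10 for CASP9 and 0.04 for CASP2. Of 4 expressed inhibitors of apoptosis and their antagonists 1 was at least 2-fold lower. This was BIRC5, which encodes survivin and is also a mitotic gene. It had 8.67 FPKM in the knockdown library and 19.5 FPKM in the control library, 2.25-fold lower (interval 2.11 to 2.40). The antagonists DIABLO and HTRA2 had log2 ratios of -0.21 and -0.20.

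At the outer membrane, where BAK1 and BAX act, 6 of 8 genes were expressed with a median of -0.27. VDAC2, a channel that holds BAK1 at mitochondria, had 8.27 FPKM in the knockdown library and 15.7 FPKM in the control library, a log2 ratio of -0.85. MFN2 stood at -0.64 and VDAC1 at -0.33. Of 10 death receptor genes 6 were expressed, and none passed 2-fold on the log2 ratio with 1 added. The adaptor TRADD had 3.73 FPKM in the knockdown library and 1.81 FPKM in the control library. Its log2 ratio with 1 added was 0.75, whereas its CPM ratio was 2.06 (interval 1.77 to 2.40), past 2-fold without the added 1. The TRAIL receptors TNFRSF10B and TNFRSF10A stood at -0.67 and -0.48.

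Genes known to act on MCL1 protein turnover had a median of -0.17 over 6 expressed of 9. USP9X, which removes ubiquitin from MCL1, stood at -0.62, the ubiquitin ligase HUWE1 at -0.56, and the mitochondrial ligase MARCH5 at 0.60. Of 16 genes known to steer BCL2L1 or MCL1 splicing 13 were expressed with a median of -0.22 and 0 past 2-fold. RBM10 had 19.2 FPKM in the knockdown library and 34.2 FPKM in the control library, a log2 ratio of -0.80, and HNRNPF and RBM5 stood at -0.58 and -0.50. Among transcription factors that act on BH3-only genes, the stress factor DDIT3 (CHOP) had 1.81 FPKM and 281 counts in the knockdown library, against 0.314 FPKM and 50 counts in the control library. Its CPM ratio was 5.76 (interval 4.25 to 7.95), and its log2 ratio with 1 added was 1.10. Its upstream partner ATF4 stood at 0.73.

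In the annotation deposited with the table all 10 members carried the term apoptotic process, and 9 (all but BIK) carried intrinsic apoptotic signaling pathway. Of the 295 genes carrying intrinsic apoptotic signaling pathway 174 were expressed, of which 6 were higher and 8 lower by 2-fold or more, with a median log2 ratio of -0.19. Of all expressed genes 2.53% were higher and 6.2% lower by that much, with a median of -0.15. Over 57 genes annotated to release of cytochrome c from mitochondria, 7 members among them, 35 were expressed with a median of -0.04. The pathway term Apoptosis was looked up as well and held 135 genes, 7 members among them. Of its 78 expressed genes 2 were higher and 5 lower by 2-fold or more, with a median of -0.24. All these sets were looked up after the values were seen, and each holds members.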

How the data were processed

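Per the labels' protocols, Trizol was used to extract total RNA from HCT116 cells, and libraries were built with a TruSeq Stranded Total RNA kit. HISAT2 2.0.4 and Cuffdiff were used with hg38 (GRCh38), per the submitters' processing notes. The deposited table held a count and an FPKM per gene for each library, per the file headers. The sources used here do not give the annotation release, the strand setting or the treatment of multiple matches. Each deposited FPKM was the count over 1 length per gene and the count total (lengths from the 2 libraries differed by at most 0.0241%). Of 50869 lines, 2 that held 1 broken entry were left out. A kilobase covered by 1 count is 0.0386 FPKM in the knockdown library and 0.0377 FPKM in the control library.

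Computed here were log2 ratios of FPKM with a pseudocount of 1, a minimum of 1 FPKM in the higher library, CPM ratios with 95% Clopper-Pearson conditional intervals, and conditional odds ratios for pairs of genes. Higher or lower at 2-fold means by size alone. Gene structure came from GENCODE release 29, matched by identifier for 50110 rows. No test across samples was possible. Named were the members, the other family genes of at least 1 FPKM, overlapping entries of at least 50 counts with smaller ones added, and up to 3 genes per pathway list. A gene of 1 list is not reported here. The members and lists were chosen with earlier results of these data known. Alternatives were pseudocounts of 0.1 and 0.5, other filters, thresholds and scalings. The lengths from GENCODE were added after the values were seen. The procedure was tested on simulated counts that held planted changes and counting error only, so variation between cultures and shifts in RNA composition were not covered. Scripts ran in Python 3.11.15 with scipy 1.17.1, numpy 2.4.6, matplotlib 3.10.9 and pandas 2.3.3.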

Additional observations from a re-analysis of the deposited data

How the results depend on the processing

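No paired analysis was possible because each group had a single library, and leaving out a replicate could not be run for the same reason. The count of members at least 2-fold higher was 0 as deposited and 1 (BAK1) with median centring, upper-quartile scaling and a total without 7SL, RN7SK and RPPH1. A 1.5-fold threshold gave 3. The count lower stayed at 0 under each alternative run. Among all genes, 227 were higher and 555 lower as deposited. In that order the counts were 469 and 1129 with a pseudocount of 0.1, 345 and 358 with median centring, 388 and 349 with upper-quartile scaling, 107 and 1405 with TPM rescaling, and 379 and 1063 with CPM and a prior of 0.5. A minimum of 5 FPKM gave 131 and 309, a 1.5-fold threshold 757 and 1631, and a total without the small RNAs 396 and 501. Genes higher were thus 29.03% of the calls as deposited, 49.1% with median centring, 52.6% with upper-quartile scaling, 44.1% without the small RNAs and 7.08% with TPM rescaling. The members' median minus that of all expressed genes was 0.27 as deposited and 0.083 with no filter on low values. The guardian to BH3-only ratio, knockdown over control, was 0.947 as deposited, 0.783 by raw counts, 0.863 with exons covered once and 0.819 with the longest transcript. The effector to BH3-only ratio was 1.252, 1.04, 1.16 and 1.04 on the same measures. Sums over genes weight each gene by its length, so these sums move with the length chosen. Low counts widen the intervals of BCL2L11 and BMF, and counting intervals leave out variation between cultures.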
